A study of Homo sapiens with 47 samples.

Results

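The clustered protocadherin genes lie in 3 neighbouring clusters on human chromosome 5, called alpha, beta and gamma. The stretch described here was taken by position, from base 140150001 to base 140900000 of chromosome 5 in build hg19, a window of 750 kb. Every deposited interval that overlapped it was a member, whatever its score. These were 870 of 2303965 intervals in 32 libraries: 541 of 1654632 ATAC-seq peaks, 38 of 170372 H3K27ac peaks and 291 of 478961 H3K9me3 islands. The authors' deposited table of intervals named RRR, whose meaning its columns do not give, held 2 members among its 1848 intervals.

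Protocadherins of these clusters are cell-surface proteins by which neurons tell their own branches from those of other cells. Each variable first exon has its own promoter, and a neuron uses only some of them, a choice known to involve CTCF, cohesin, distant enhancers and DNA methylation. Silent members are known to carry H3K9me3, a histone mark of heterochromatin that the enzyme SETDB1 deposits there. H3K27ac marks active promoters and enhancers, and ATAC-seq finds open chromatin as the places that Tn5 transposase can reach.

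Both 451Lu and WM983B are melanoma cell lines. The groups were vemurafenib-resistant and parental cells of each line, vemurafenib being an inhibitor of the kinase BRAF. The other groups were 451Lu cells with c-JUN and c-FOS over-expressed and an shRNA against p150 (shp150_AP1), with vector and NT control (vector_NT), with c-JUN and c-FOS alone (AP1), with vector alone (vector), with the shRNA alone (shp150) and with NT control alone (NT). ATAC-seq had 2 libraries in each of these 10 groups, H3K9me3 had 2 in each of 4 groups of 451Lu (resistant, parental, shp150_AP1 and vector_NT), and H3K27ac had 1 library with a list in resistant and parental cells of each line. The labels do not state the promoters that drive the added genes, drug doses, clones or passages. Separate cultures are not stated for replicates either, so their spread may be technical. No RNA value was available here, so the expression of the protocadherins themselves was not analysed here.

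RefSeq lists 53 protein-coding genes in the 3 clusters, 15 of alpha, 16 of beta and 22 of gamma type, and 2 other protein-coding genes, SLC25A2 and TAF7, start between the first and the last of them. RefSeq promoter sequences (GRCh38.p14) were at hand for 47 of the 53, each running from 250 bases before to 50 bases after the annotated start. A conserved element with the letters CGCT at its core is known from many of these promoters. On the sense strand, CGCT stood in the last 100 bases before the start in 44 of the 47 promoters (93.6%), against 28.7% of 35116 promoters of all genes. On either strand and anywhere in the 300 bases, it or its reverse complement stood in 97.9% of the protocadherin promoters and in 70.0% of all promoters. Within the 100 bases searched, the first match from the 5′ end lay between 11 and 95 bases before the start, with a median of 59. The search set the limits of this range. Some promoters held several matches, and the first need not be the conserved element. A match is a description of the letters only, and does not show that a promoter, printed here or not, carries that element. The first, the middle and the last gene with a match in each cluster, in chromosome order, are shown because these promoters belong to the genes of the window. All are on the plus strand of chromosome 5, written 5′ to 3′, with CGCT in capitals.
PCDHA1: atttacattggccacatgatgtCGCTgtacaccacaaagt
PCDHA8: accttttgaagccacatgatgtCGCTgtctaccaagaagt
PCDHAC2: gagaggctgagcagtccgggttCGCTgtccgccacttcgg
PCDHB1: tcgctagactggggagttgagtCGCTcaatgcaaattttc
PCDHB16: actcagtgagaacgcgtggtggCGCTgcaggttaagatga
PCDHB15: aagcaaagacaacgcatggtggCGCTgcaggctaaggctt
PCDHGA1: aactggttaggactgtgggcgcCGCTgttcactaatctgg
PCDHGB4: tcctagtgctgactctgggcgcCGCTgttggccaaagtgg
PCDHGC4: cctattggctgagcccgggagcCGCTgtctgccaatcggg
Compared position by position over the 40 bases shown, PCDHB16 and PCDHB15 had 29 identical bases, and PCDHA1 and PCDHA8 had 28, as did PCDHGA1 and PCDHGB4. PCDHA1 and PCDHB1 had 11, the fewest of the pairs shown. PCDHB1 had no more than 20 with any other promoter shown, and PCDHAC2 no more than 19. The marked intervals are in another build than these sequences, so no interval was given to a single gene. Positions are instead given in hg19 and by parts 1, 2 and 3 of the window, each 250 kb long, and as background the alpha, beta and gamma clusters lie in this order.

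H3K9me3 covered most of the window in every 451Lu library. Islands, the broad enriched stretches in the authors' lists, covered 536.0 and 497.8 kb in resistant cells, against 524.6 and 527.2 kb in parental cells. They covered 536.2 and 573.2 kb in shp150_AP1 cells, against 569.2 and 567.4 kb in vector_NT cells. These lengths were 66.4% to 76.4% of the window. Of 3766 tiles of 750 kb over the genome, between 97.7% and 98.8% held less island length, and the median tile held 26.5 to 62.8 kb. Stretches of 386.8 kb, or 51.6% of the window, were in islands of all 8 libraries, and 86.0 kb, or 11.5%, in islands of none.

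The marked domain ended close to the window's borders. The 750 kb before it held 48.8 to 75.4 kb of islands and the 750 kb after it 17.6 to 41.6 kb. Coverage was lowest in part 1 (46.1% to 60.2%), higher in part 2 (70.3% to 83.4%) and highest in part 3 (81.8% to 88.6%) in each of the 8 libraries. The longest stretch without an island in any library was the last 25.2 kb of the window, chr5:140874801-140900000, followed by 15.2 kb at chr5:140411401-140426600 and 11.0 kb at chr5:140348601-140359600. The last 25.2 kb touched 4 of the ATAC regions and 4 of the H3K27ac regions described below.

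Enrichment within the islands was lower in resistant than in parental cells. The summed ChIP reads over the summed input reads of the islands, scaled by the factor that the deposited fold implies for each library, were 2.20 and 2.37 in resistant cells, against 3.05 and 3.09 in parental cells. The groups did not overlap, and the means of 2.29 and 3.07 differed by -0.784, a ratio of 0.745. In the exact two-sided permutation test p was 0.333, the smallest that 2 against 2 libraries can give. Over all islands of the lists the same value was 1.48 and 1.57 in resistant cells, against 1.90 and 1.93 in parental cells, a ratio of 0.798 of the means. Set against its own list, the window stood at 1.48 and 1.51 in resistant cells, against 1.61 and 1.60 in parental cells.

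The engineered cells gave values in the same order. ChIP over input in the window was 2.74 and 2.67 in shp150_AP1 cells, against 3.22 and 3.39 in vector_NT cells. The means of 2.70 and 3.31 differed by -0.604, a ratio of 0.817, with an exact two-sided permutation p of 0.333. Over all islands it was 1.81 and 1.71 in shp150_AP1 cells, against 1.92 and 1.99 in vector_NT cells. The window over its own list was 1.52 and 1.56 in shp150_AP1 cells, against 1.68 and 1.70 in vector_NT cells. Neither pair of groups overlapped in the window, over all islands or in the quotient of these. The labels used here list no input library for shp150_AP1 replicate 1.

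The lower value was found in each part of the window. An island that crosses a border between parts was counted whole in both, so the part values share reads. In part 1 the mean ChIP over input was 2.02 in resistant and 2.605 in parental cells, a ratio of 0.775. In part 2 it was 2.37 in resistant and 3.27 in parental cells, a ratio of 0.725, and in part 3 it was 2.54 in resistant and 3.64 in parental cells, a ratio of 0.697. For shp150_AP1 over vector_NT cells the ratios were 0.907, 0.791 and 0.755 in parts 1, 2 and 3. Each of the 8 libraries was highest in part 3. The region chr5:140463201-140609000, which lies within part 2, had 2.14 and 2.14 in resistant cells, against 2.71 and 2.64 in parental cells.

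Island length and enrichment moved differently. The mean island length in the window was 516.9 kb in resistant and 525.9 kb in parental cells, a difference of -9.0 kb and a ratio of 0.983 (exact two-sided permutation p = 1.0). The whole lists covered 277.6 Mb in resistant and 332.0 Mb in parental cells, a ratio of 0.836. The mean length in the window was 554.7 kb in shp150_AP1 and 568.3 kb in vector_NT cells, a difference of -13.6 kb (exact two-sided permutation p = 1.0), where the lists had a ratio of 0.756. The sign of the length difference turned without resistant replicate 2 (10.1 kb) and without shp150_AP1 replicate 1 (4.9 kb).

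Input reads per kb of island moved with the groups. In the window there were 36.7 and 36.7 input reads per kb in resistant cells, against 28.8 and 30.4 in parental cells, and 32.9 and 33.8 in shp150_AP1 cells, against 26.6 and 27.9 in vector_NT cells. Over all islands they were 45.5 and 46.1 in resistant cells, against 36.8 and 37.7 in parental cells. The window over its own list was 0.806 and 0.796 in resistant cells, against 0.782 and 0.806 in parental cells, and these overlapped. ChIP reads summed over a list ranged from 11.5 M to 31.1 M, with the most in vector_NT replicate 1. The part of these differences in the ChIP over input values was not tested.

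**Figure D1:**
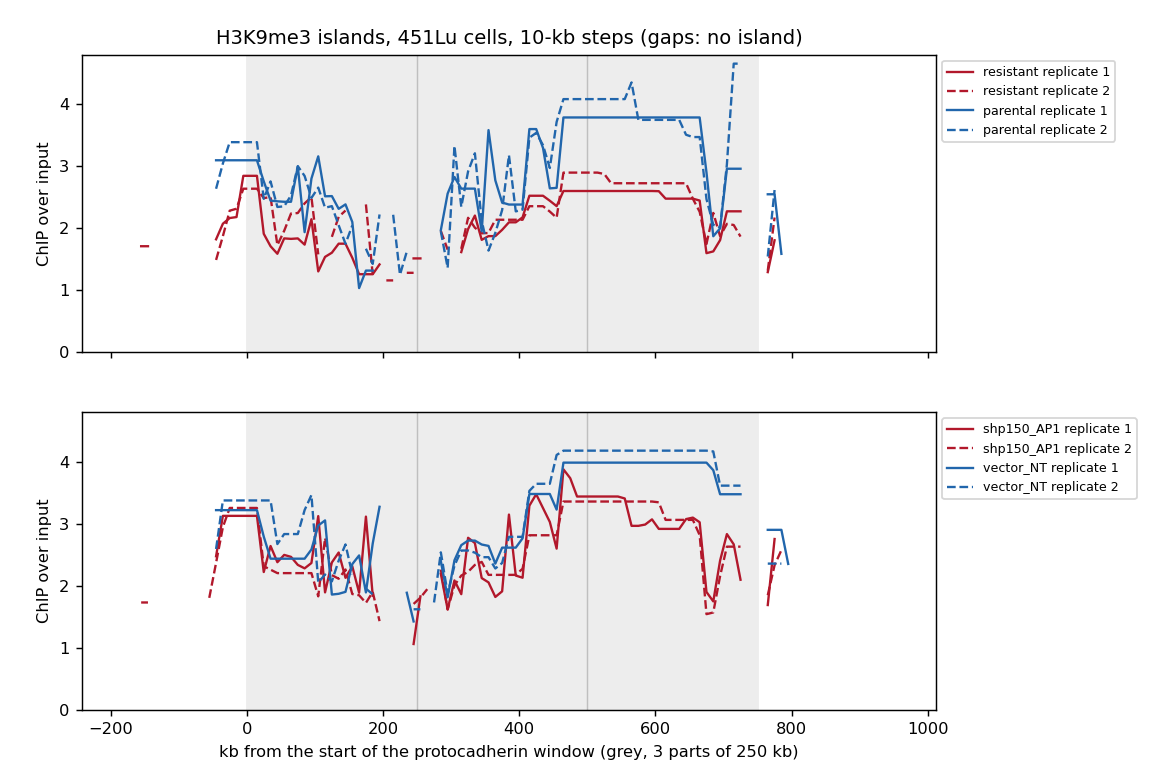
H3K9me3 ChIP over input along the window and 250 kb on each side, as the mean over covered bases in steps of 10 kb, for resistant and parental cells (top) and shp150_AP1 and vector_NT cells (bottom), 1 line per library. Lines break where a step has no island. In the later parts of the window both parental libraries and both vector_NT libraries lie mostly above those of resistant and shp150_AP1 cells.

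**Figure D2:**
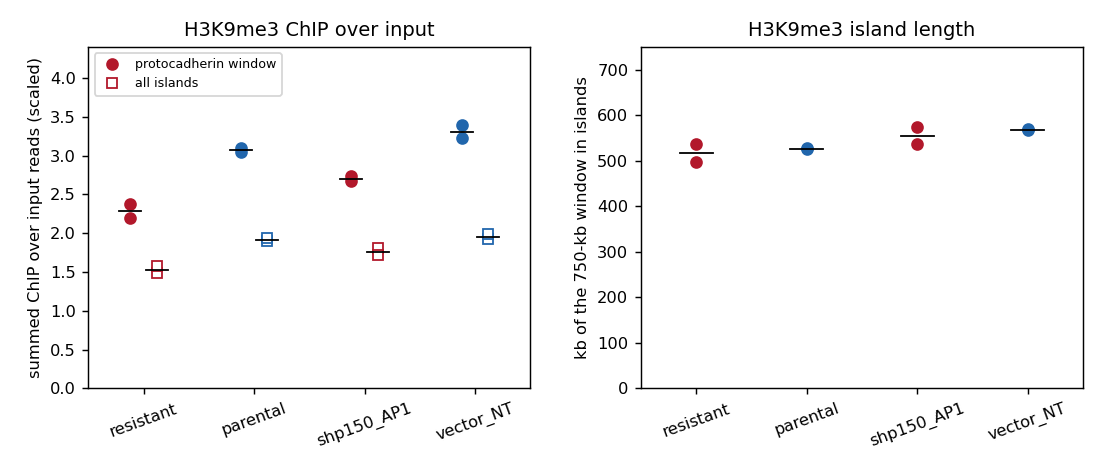
Left, summed ChIP over input reads of H3K9me3 islands in the protocadherin window (filled circles) and over all islands (open squares). Right, kb of the window in islands. Points are libraries and bars are means of 2; ChIP over input does not overlap between resistant (2.20 and 2.37) and parental cells (3.05 and 3.09), whereas island length does.

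Merged regions of islands were rarely listed in one group and absent in the other. Islands that overlap between libraries were joined, so an island missing inside a longer region was not counted. The longest regions were 265 kb for resistant and parental and 420.4 kb for shp150_AP1 and vector_NT libraries. The lists of the resistant and parental libraries merged into 22 regions that touched the window. None was gained, that is, listed in both resistant and neither parental library, against 3.06% of 77124 regions over the genome. The reverse, lost, held for 2, against 17.7% over the genome, and 9 were listed in all 4 libraries, against 26.5%. The lost regions were chr5:140454601-140459600, with 208 and 230 ChIP reads in parental cells, and chr5:140434601-140437800, with 105 and 109. Of the 19 regions from shp150_AP1 and vector_NT cells, 0 were gained (1.87% of 82020 over the genome), 0 were lost (13.8%) and 9 were listed in all 4 libraries (34%).

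Read counts of the regions listed in all 4 libraries were compared with edgeR's quasi-likelihood test, with Benjamini-Hochberg adjustment over all regions fitted. In each library only reads in its own islands within a region were counted, so a count also depends on the island length listed. The direction depended on the scaling. On ChIP reads with TMM scaling, 1 of the 9 window regions was higher in resistant cells, against 7.72% of 20432 regions over the genome, and 0 were lower, against 5.57%. The median log2 fold change was 0.18 over the 9 and 0.00 over all regions. With the deposited ChIP over input scale as an offset, an alternative added after seeing the data, 0 of the 9 were higher (0.357% over the genome) and 6 were lower (15.2%). The medians were then -0.34 over the 9 and -0.29 over all regions, so all regions shifted with the scale. Here and below, p-values on this scale take the input counts and the factor per library as known without error. They are set against no change, not against the shift of all regions.

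The longest region shows both scales. chr5:140609801-140874800, most of part 3 and the end of part 2, had 16880 and 15747 ChIP reads in resistant cells, against 18156 and 20849 in parental cells, from 248.4 and 247 kb of islands against 256.4 and 251.4 kb. Its ChIP over input was 2.46 and 2.62 in resistant cells, against 3.56 and 3.73 in parental cells. In edgeR its log2 fold change was -0.09 (SE 0.07, adjusted p = 0.412) on ChIP reads and -0.52 (SE 0.04, adjusted p = 5.67e-09) on the ChIP over input scale.

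The region called higher on ChIP reads was chr5:140463201-140609000, in part 2, where the log2 fold change from edgeR was 0.31 (SE 0.07, adjusted p = 0.0267). It had 8149 and 7220 ChIP reads in resistant cells, against 6511 and 7380 in parental cells. Its islands were also longer there, 138.4 and 131 kb in resistant against 122.4 and 124.6 kb in parental cells. Without parental replicate 1 or without parental replicate 2, 0 regions were called higher. On the ChIP over input scale, where the values were 2.14 and 2.14 in resistant cells, against 2.71 and 2.64 in parental cells, edgeR gave -0.32 (SE 0.05, adjusted p = 0.000176). The region at the start of the window, chr5:140104001-140174200, was not called on ChIP reads (log2 fold change -0.05, SE 0.08, edgeR adjusted p = 0.740) and was lower on the ChIP over input scale (-0.35, SE 0.06, edgeR adjusted p = 0.000748).

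In shp150_AP1 against vector_NT cells the same dependence was seen. On ChIP reads with TMM scaling, edgeR called 1 of 9 window regions higher (2.23% of 27903 over the genome) and 0 lower (1.66%). On the ChIP over input scale it called 0 higher (0.1% over the genome) and 1 lower (1.63%), with medians of -0.11 over the 9 and -0.09 over all regions. The region called higher was chr5:140283601-140300400 in part 1, with a log2 fold change of 0.87 (SE 0.18, edgeR adjusted p = 0.0471). The count of regions called higher was 5 without shp150_AP1 replicate 2 and 0 without any other single library. It had 599 and 676 ChIP reads from 15.6 and 14.2 kb of islands in shp150_AP1 cells, against 802 and 516 reads from 11.8 and 9.4 kb in vector_NT cells. On the ChIP over input scale its log2 fold change was -0.02 (SE 0.17, edgeR adjusted p = 0.984).

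The region called lower was chr5:140452601-140873000, 420.4 kb long. Its ChIP over input was 2.87 and 2.81 in shp150_AP1 cells, against 3.55 and 3.68 in vector_NT cells, with a log2 fold change of -0.35 (SE 0.03, edgeR adjusted p = 7.43e-08). On ChIP reads, 20765 and 25606 in shp150_AP1 cells against 48159 and 35226 in vector_NT cells, which are not scaled for depth, the fitted log2 fold change was 0.05 (SE 0.08, edgeR adjusted p = 0.761). The other long region, chr5:140102801-140243600, was not called on either scale (0.17, edgeR adjusted p = 0.275, and -0.15, edgeR adjusted p = 0.182). Nor was the third by length, chr5:140319401-140337000 (0.88, edgeR adjusted p = 0.124, and -0.04, edgeR adjusted p = 0.957). Its islands covered 7.4 and 15.2 kb in shp150_AP1 cells, against 6.4 and 9.8 kb in vector_NT cells.

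**Figure D3:**
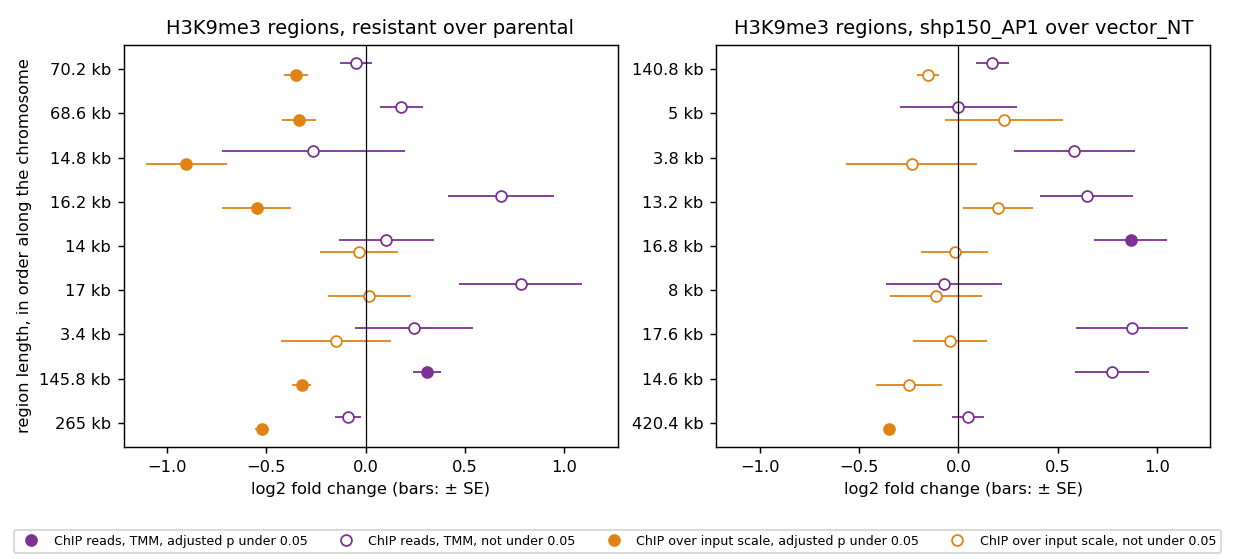
Log2 fold changes from edgeR, with SE, for the 9 H3K9me3 regions of each comparison that all 4 libraries list, in order along the chromosome and labelled by length; the first of each starts before the window. Purple is ChIP reads with TMM scaling and orange the deposited ChIP over input scale; filled points have an adjusted p under 0.05. For resistant over parental cells the only filled purple point is at 0.31, and the 6 filled orange points lie between -0.90 and -0.32.

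Within a line, 0 to 2 ATAC regions of the window per direction were listed in both libraries of one group and neither of the other. The genome-wide shares are given with each count below, and a difference from them was not tested. The length covered by peaks was lower in shp150 than in NT cells. ATAC-seq listed 25 and 27 peaks in resistant 451Lu cells, against 27 and 25 in parental cells, and covered 17.025 and 18.0 kb, against 17.5 and 16.96 kb. It listed 26 and 27 peaks in shp150_AP1 cells against 30 and 24 in vector_NT cells, 19 and 17 in AP1 cells against 18 and 20 in vector cells, and 18 and 20 in shp150 cells against 24 and 21 in NT cells. In WM983B it listed 43 and 38 peaks in resistant cells, against 45 and 47 in parental cells. Only shp150 against NT and WM983B resistant against parental did not overlap in the number of peaks, in both cases with fewer in the first.

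The covered length set these 2 comparisons apart. Peaks covered 7.67 and 8.16 kb of the window in shp150 cells, against 11.3 and 10.2 kb in NT cells, and the groups did not overlap. Median scores in the window were 5.6 and 6.2 in shp150 cells, against 9.3 and 9.7 in NT cells. Over the whole lists the medians were 7.66 and 7.65 in shp150 cells, against 10.2 and 8.76 in NT cells. The whole lists moved the same way, with 43913 and 42898 peaks over 18.3 and 18.1 Mb in shp150 cells, against 55609 and 53419 peaks over 26.9 and 24.01 Mb in NT cells, and the part of this in the window values was not tested. In WM983B the covered length was 8.54 and 9.76 kb in resistant cells, against 8.08 and 9.73 kb in parental cells, which overlapped and had the higher mean in resistant cells. The list lengths of WM983B were 132326 and 144713 peaks in resistant cells, against 129339 and 147988 in parental cells, and overlapped. The covered length overlapped between shp150_AP1 (16.8 and 17.3 kb) and vector_NT cells (18.6 and 16.7 kb) and between AP1 (8.13 and 9.67 kb) and vector cells (8.93 and 10.03 kb). Scores of peaks are the authors' own and rank peaks within a list.

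For each comparison the peaks of its 4 libraries were merged into regions and called by the same rule as the islands. In resistant against parental 451Lu cells, 2 of 29 window regions were gained (9.79% of 114302 over the genome), 2 were lost (3.96%) and 18 were listed in all 4 libraries (54.3%). The gained regions lay in part 1. chr5:140372181-140372884 had scores of 13.7 and 13.0 in resistant cells, and chr5:140365654-140366135 had scores of 9.0 and 13.1. Neither was listed in a parental library, in any WM983B library or in any other 451Lu library except shp150_AP1 replicate 2, with scores of 5.6 and 4.7.

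A resistant-only H3K27ac peak of 451Lu, chr5:140365299-140365576, with a score of 3.3 in 1 library, ended 77 bp before the second of these. In part 3 the ATAC region chr5:140818952-140819474 had scores of 24.4 and 24.3 in resistant cells, against 6.6 and no peak in parental cells. The resistant-only H3K27ac peak chr5:140818514-140818812, with a score of 4.0 in 1 library, lay 139 bp before it. Both H3K27ac scores were under 5, where the median of that library in the window was 9.6. Of the other resistant-only H3K27ac peaks of 451Lu, some overlapped an ATAC region that every library lists. The rest lay 8484 to 9489 bp from the nearest ATAC region. The ATAC region chr5:140818952-140819474 had scores of 14.8 and 12.1 in shp150_AP1 cells, against 6.5 and 3.2 in vector_NT cells. It was listed in no AP1, vector, shp150 or NT library. In WM983B it was listed in no resistant library and in parental replicate 2 alone, with a score of 3.7. This ATAC region and both H3K27ac peaks near ATAC regions were chosen after their values were seen. The ATAC region counts as neither gained nor lost. The lost regions, chr5:140588292-140588727 with scores of 8.7 and 6.6 in parental cells and chr5:140652430-140652860 with 5.6 and 5.6, had no peak in resistant cells.

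The other comparisons gave counts of 0 to 2. In shp150_AP1 against vector_NT cells 1 of 32 regions was gained (5.19% of 108325 over the genome), 1 was lost (3.26%) and 21 were listed in all 4 libraries (56.5%). The gained one, chr5:140579018-140579567, had scores of 4.8 and 4.7 in shp150_AP1 cells and was listed in all 4 WM983B libraries and in no other 451Lu library. The lost one, chr5:140529402-140529698, had scores of 3.7 and 6.1 in vector_NT cells. In AP1 against vector cells 0 of 22 were gained (1.6% of 69797), 1 was lost (2.86%), with scores of 5.9 and 7.3 in vector cells at chr5:140535312-140535730, and 13 were listed in all 4 libraries (55.1%). In shp150 against NT cells 0 of 27 were gained (0.747% of 69032), 0 were lost (7.51%) and 11 were listed in all 4 libraries (43.6%).

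In WM983B, resistant against parental, 1 of 57 regions was gained (1.47% of 201296), 2 were lost (1.22%) and 24 were listed in all 4 libraries (38%). The gained one, chr5:140792514-140792652, had scores of 3.9 and 3.8 in resistant cells. The lost ones were chr5:140514701-140514932, with 3.6 and 6.3 in parental cells, and chr5:140346160-140346322, with 3.6 and 2.6. None of these 3 was gained or lost in 451Lu.

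Parental 451Lu and parental WM983B cells each had regions that the other did not list. Between parental 451Lu and parental WM983B cells, 5 of 51 regions were listed in both 451Lu and neither WM983B library (6.17% of 174751 over the genome), 12 in both WM983B and neither 451Lu library (16.1%), and 16 in all 4 (29.9%). Which line had more depended on the setting. Lists of equal length gave 9 in 451Lu alone and 9 in WM983B alone, scores of at least 5 gave 8 and 8, and counting a region as listed only where at least 50% of it was covered gave 14 and 11. Leaving out WM983B parental replicate 1 gave 6 and 22.

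The 5 regions of 451Lu were chr5:140174208-140175249, with scores of 21.01 and 30.8, chr5:140810008-140810402 with 10.96 and 10.9, chr5:140419698-140420180 with 10.8 and 10.02, chr5:140305763-140306447 with 2.9 and 8.7, and chr5:140652430-140652860 with 5.6 and 5.6. The third of these lies beside chr5:140420282-140421018, listed in all 4 parental libraries, and merging all 20 libraries joins both into 1 region that every library lists. The 5 highest of the 12 in WM983B had scores of 9.8 to 23.4 and lay at chr5:140705692-140706065, chr5:140571755-140571964, chr5:140557255-140557418, chr5:140593377-140593512 and chr5:140579068-140579400, all but the first in part 2. The peaks of WM983B were narrower, with a median width in the window of 135 to 195 bp in WM983B and 300 to 664 bp in 451Lu, and the lowest score listed was 1.303 to 1.317 in WM983B and 2.001 to 2.036 in 451Lu. Whether both lines' lists were made alike is not given in the sources used here.

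Over all 20 libraries 57 of 208946 regions touched the window. Among them 8 were listed in all 4 WM983B libraries and in none of the 16 of 451Lu (4.7% of regions over the genome), 0 in part 1, 5 in part 2 and 3 in part 3. They were 202 to 562 bp long. Those with the highest median scores lay at chr5:140557197-140557424, with 11.3 and 23.3 in resistant and 14.4 and 13.96 in parental WM983B cells, and at chr5:140705677-140706213, with 9.2 and 20.2 in resistant and 13.98 and 23.4 in parental cells.

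At the other end, 7 regions were listed in all 16 libraries of 451Lu (12.6% of regions over the genome), and 6 of these 7 in all 20 libraries (11.7%). The seventh, chr5:140174198-140175267 at the start of part 1, had scores of 4.1 to 30.8 over the 16 libraries of 451Lu, with a median of 15.7, and no peak in WM983B. The 6 shared regions were chr5:140419642-140421018 and chr5:140473884-140474670 in part 2, and in part 3 chr5:140699830-140700868, chr5:140855178-140856436, chr5:140873368-140875995 and chr5:140891963-140894341. The fourth and last of them had the highest medians in 451Lu, 26.6 and 27.2, with WM983B scores of 25.01 to 28.8 and 9.9 to 21.6. The region chr5:140305763-140306531, in part 1 and chosen later, was listed in 12 libraries of 451Lu. Its scores were 14.99 and 16.4 in resistant cells against 2.9 and 8.7 in parental cells, and 5.8 and 8.6 in shp150_AP1 cells against 10.3 and 9.3 in vector_NT cells. It had no peak in AP1, vector or WM983B cells.

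**Figure D4:**
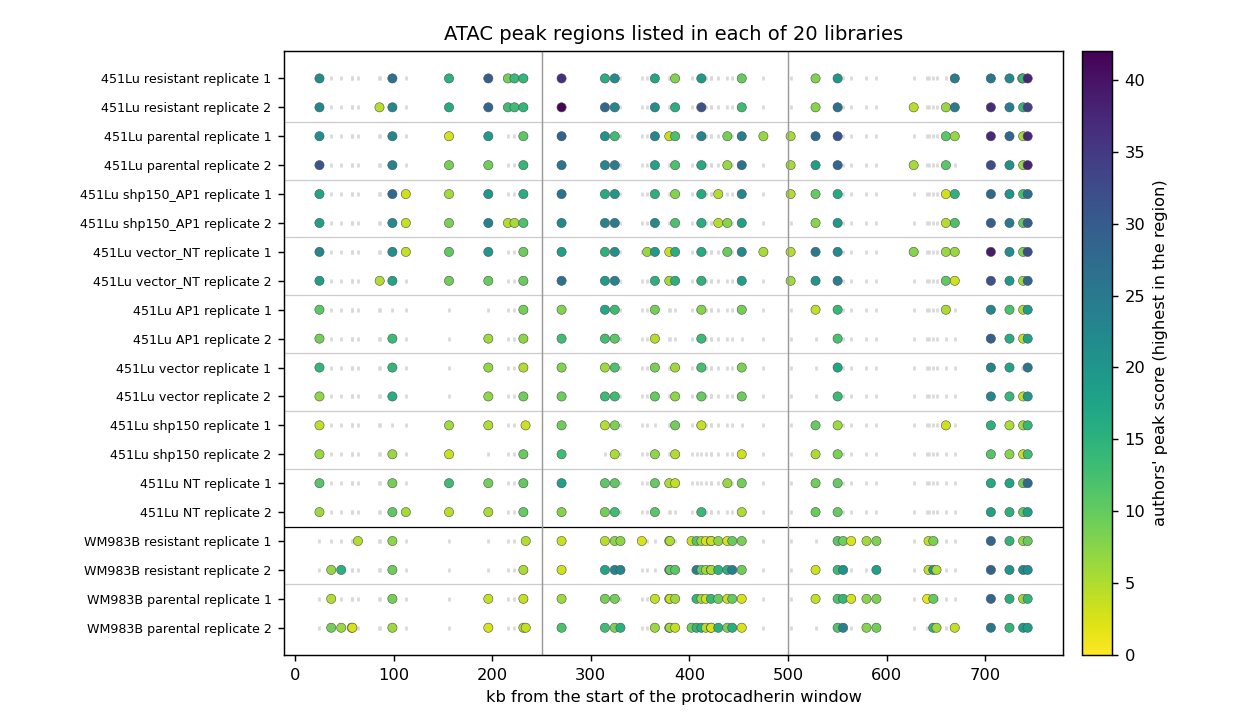
The 57 ATAC regions by distance from the window's start, 1 row per library; a filled circle marks a listed region, coloured by the authors' score, and a grey tick one that is not listed. The 8 regions filled in all 4 WM983B rows and empty in the 16 of 451Lu lie beyond 250 kb, and the pair gained in resistant 451Lu cells lies before it.

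Open regions touched H3K9me3 islands in a larger share here than over the genome. Within the window, a smaller share of peak length than of the window itself lay in islands. In the window 35 of the 57 regions touched islands of all 8 libraries of 451Lu, against 2.79% of all regions over the genome. Of the 7 regions open in all 16 libraries of 451Lu, 4 did so (2.13% over the genome), and of the 8 open in WM983B alone, 6 did so (3.35%). H3K9me3 was not measured in WM983B, so the last count sets open regions of one line beside islands of the other. Matched by group and replicate number, 38.7% and 30.2% of the ATAC peak length in the window lay in islands in resistant cells, against 41.8% and 32.2% in parental cells, and the groups overlapped. The genome-wide share was 6.86% and 5.68% in resistant cells, against 4.58% and 4.33% in parental cells. In shp150_AP1 cells the window share was 36.6% and 48.7%, against 47.1% and 45.3% in vector_NT cells. In the same libraries islands covered 71.5% and 66.4% of the window in resistant cells, against 69.9% and 70.3% in parental cells. They covered 71.5% and 76.4% in shp150_AP1 cells, against 75.9% and 75.7% in vector_NT cells. Each of the 8 libraries thus had a smaller share of peak length than of the window in islands. Islands cover most of the window and less of the genome, and the part of this coverage in these shares was not tested.

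H3K27ac peaks were few and lay in parts 1 and 3 of the window. Over the 4 lists there were 18 regions, 7 in part 1, 0 in part 2 and 11 in part 3, and 7 of the 18 overlapped an ATAC region. With 1 library a group there is no replicate check. The lists held 16 peaks in resistant and 9 in parental 451Lu cells, and 8 in resistant and 5 in parental WM983B cells. The whole lists held 51710 peaks in resistant and 32304 in parental 451Lu cells, but 36022 in resistant and 50336 in parental WM983B cells. The order in the window was that of the lists in 451Lu and the reverse of it in WM983B.

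Of 17 regions in 451Lu, 8 were listed in resistant cells only (50.3% of 64276 over the genome), 1 in parental cells only (19.9%) and 8 in both (29.9%). The resistant-only regions with the highest scores were chr5:140222321-140222729, with 14.97, and chr5:140700761-140701180, with 14.1, followed by chr5:140845344-140845688 with 8.2, chr5:140355748-140356171 with 8.1 and chr5:140855786-140856063 with 4.1. Among those listed in both, chr5:140393877-140394321 had scores of 10.04 in resistant and 17.3 in parental cells. The parental-only region was chr5:140229486-140229837, with 8.6. Of 9 regions in WM983B, 4 were listed in resistant cells only (21.2% of 63552), 1 in parental cells only (43.8%) and 4 in both (35%). The resistant-only ones were chr5:140888303-140888641 with 8.5, chr5:140393941-140394249 with 7.5, chr5:140855554-140855921 with 6.3 and chr5:140861144-140861458 with 4.3, and the parental-only one was chr5:140222402-140222687 with 3.7.

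Merged over both lines, the region chr5:140855554-140856063 was listed in the resistant library of either line, with 4.1 in 451Lu and 6.3 in WM983B, and in neither parental library. It overlapped an ATAC region that was open in all 20 libraries. The 3 regions listed in all 4 lists lay in part 3. chr5:140871645-140872086 had scores of 23.5 in resistant and 18.7 in parental 451Lu cells, and 12.3 in resistant and 16.8 in parental WM983B cells. chr5:140892490-140893354 had scores of 13.96 in resistant and 27.2 in parental 451Lu cells, and 11.0 in resistant and 15.6 in parental WM983B cells. The third was chr5:140699981-140700472, with 15.996 in resistant and 6.0 in parental 451Lu cells, and 5.5 in resistant and 7.2 in parental WM983B cells.

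**Figure D5:**
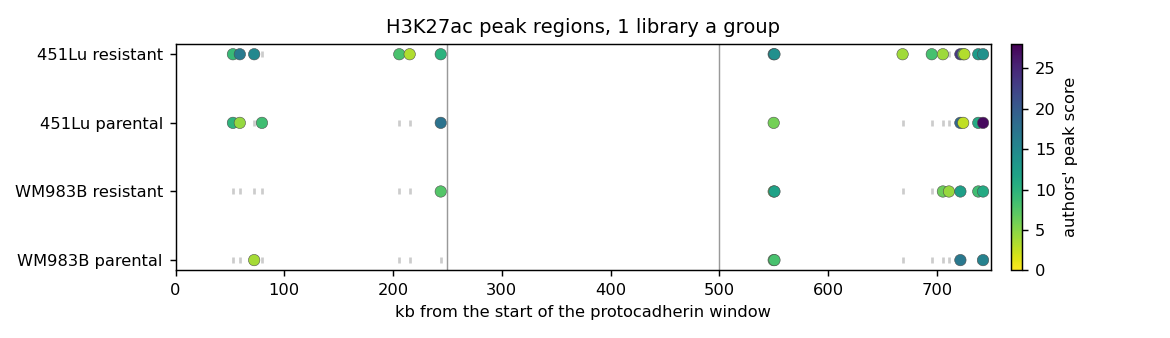
The 18 H3K27ac regions by distance from the window's start, 1 row per library; a filled circle marks a listed region, coloured by the authors' score, and a tick one that is not listed. No region lies in part 2, between 250 and 500 kb, and resistant 451Lu cells list 16 of the 18.

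The authors' deposited table of RRR intervals gave chr5:140160000-140400000 a log2 fold change of 1.25 (SE 0.321, adjusted p = 0.000190), and this interval covers most of part 1. The authors' deposited table gave chr5:140720000-140800000, in part 3, a log2 fold change of 0.86 (SE 0.321, adjusted p = 0.0111). Of the 1848 intervals in the authors' deposited table, 33.2% had an adjusted p under 0.05 with a positive and 41.2% with a negative log2 fold change, and 23.9% and 30.9% of intervals ranked above the 2 members. The table names neither its assay nor which group a positive value favours, so no direction is drawn from it.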

How the data were processed

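Peaks (ATAC-seq, H3K27ac) and H3K9me3 islands were listed per library by the authors, on build hg19 per the submitters' processing notes, which name Bowtie2, Picard, MACS2 and SICER without roles. Each peak has the score deposited by the authors. The island columns are ChIP and input read counts, a p-value, the fold (a ratio of ChIP over input, equal to the ratio of the counts times 1 factor per library within 1e-05) and a false discovery rate, as deposited. In the authors' deposited table of intervals, the mean normalized count is a signal, beside a log2 fold change, its standard error, a test score and p-values. Peak lists give no depth.

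Lists on chromosomes 1 to 22 and X were merged per comparison over the genome, and a region counted as listed where at least 1 bp was covered. Regions listed in all 4 libraries with a mean of at least 10 ChIP reads were tested with edgeR 4.0.16 (quasi-likelihood, TMM, adjusted p under 0.05), and DESeq2 1.42.0 was an alternative. Regions were named by a rule. It took every gained or lost region where there were 5 or fewer, otherwise the 5 with the highest scores. It also took the strongest or longest regions listed in every library, and those listed in all libraries of 451Lu or of both lines. Any other region named was chosen later, and the text does not say so for each. The window and lists were chosen with earlier results of these data known.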

Additional observations from a re-analysis of the deposited data

Results flagged for a closer look

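The H3K27ac region chr5:140222321-140222729 was listed the opposite way in the 2 lines. In 451Lu it had a score of 14.97 in resistant cells and no peak in parental cells, whereas in WM983B it had no peak in resistant cells and a score of 3.7 in parental cells. Each value is 1 library, and the difference between the lines was not tested.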

How the results depend on the processing

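Over 28 results, 104 of 180 alternative values stayed close to the main value, 74 moved further from it and 2 changed sign. Close means an equal count or one at a small ratio to the main count. For a difference of means it means within the larger SD of the 2 groups. A moved value can keep its direction. The difference in ChIP over input in the window kept its sign under each alternative run: leaving out 1 library gave -0.870 to -0.698 for resistant against parental and -0.688 to -0.521 for shp150_AP1 against vector_NT cells. The island length difference gave -28.1 to 10.1 kb for resistant against parental, at 10.1 kb without resistant replicate 2, and -32.1 to 4.9 kb for shp150_AP1 against vector_NT, at 4.9 kb without shp150_AP1 replicate 1.

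For regions called from ChIP reads by edgeR in resistant against parental cells, input reads as an offset gave 0 higher and 1 lower, the deposited ChIP over input scale 0 higher and 6 lower, and leaving out 1 library 0 to 1 higher and 0 to 1 lower. In shp150_AP1 against vector_NT cells, library size without TMM gave 3 higher and DESeq2 3, input reads as an offset 0, the deposited scale 0 higher and 1 lower, and leaving out 1 library 0 to 5 higher. Library sizes without TMM moved the median log2 fold change of all regions to 0.12 in either comparison.

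No label says that equal replicate numbers share a culture or day, and with 2 pairs the correlation of same-numbered deviations was 0.008 for resistant and parental and 0.011 for shp150_AP1 and vector_NT libraries. With the replicate block, 3 regions were higher in shp150_AP1 cells in place of 1, and it changed no other count in the window.

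Leaving out 1 library also loosens the rule for gained and lost. The ATAC ranges were 2 to 4 lost for resistant against parental 451Lu, 1 to 3 gained and 1 to 4 lost for shp150_AP1, 0 to 2 gained and 1 to 3 lost for AP1, 0 to 2 gained and 1 to 5 lost for shp150, 2 to 6 gained and 3 to 7 lost for resistant WM983B, and 12 to 22 listed only in parental WM983B. The H3K9me3 ranges were 0 to 1 gained and 4 to 5 lost for resistant, and 0 to 2 gained and 0 to 2 lost for shp150_AP1 cells.

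With at least 50% of a region covered, ATAC counts were 1 lost (resistant 451Lu), 0 lost (AP1), 2 lost (shp150), 2 gained and 1 lost (resistant WM983B) and 14 listed only in parental 451Lu, and H3K9me3 counts 1 gained (shp150_AP1). With lists of equal length, ATAC counts were 0 lost (shp150_AP1), 1 gained (shp150), 2 gained and 1 lost (resistant WM983B) and 9 listed only in parental 451Lu, and H3K27ac counts 4 gained (451Lu) and 0 lost (WM983B). With scores of at least 5, ATAC counts were 0 gained (shp150_AP1), 1 gained (AP1), 4 lost (shp150) and 8 listed only in parental 451Lu, and H3K27ac counts 0 lost (WM983B). A false discovery rate of at most 0.01 gave 1 lost H3K9me3 region (shp150_AP1). The causes were not tested. A score or a call in a peak list carries no depth, so an unlisted region is not shown to be closed.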
